A study of Homo sapiens with 6 samples.

Results

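The genes described here are 10 pluripotency factors linked to TFCP2L1, followed in TPC1 cells that overexpress it. They were chosen by name: POU5F1, SOX2, NANOG, ESRRB, KLF2, KLF4, KLF5, TBX3, SALL4 and PRDM14. Of these 10 genes, 8 were among the 21173 genes of the count table, and 5 of the 8 had enough reads to be among the 14431 genes tested. TPC1 is a human papillary thyroid cancer line. RNA was sequenced from 3 libraries of TPC1 cells overexpressing TFCP2L1 (genotype label TFCP2L1 OE) and 3 libraries of TPC1 cells carrying the vector (genotype label WT). No drug, time point or further allele is given for either group, and the labels do not say how TFCP2L1 was introduced, whether a line was 1 clone or whether replicates were separate cultures. The p-values below therefore measure the spread between these libraries, which may be technical.

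TFCP2L1 belongs to the CP2 and grainyhead group of DNA-binding factors. In mouse embryonic stem cells it acts downstream of LIF, STAT3 and Wnt signalling and shares target sites with Esrrb, Klf4 and Tbx3, and these factors sustain one another's expression in the naive state. POU5F1 (OCT4), SOX2 and NANOG form the core of the pluripotency network. KLF2, KLF4, KLF5, ESRRB, TBX3, SALL4 and PRDM14 are known as its naive or supporting members. Several of the supporting factors are also used by adult epithelia, while NANOG and PRDM14 are silent in most adult cells.

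Library totals ran from 38213520 to 38987434 reads in TFCP2L1 cells and from 37928516 to 38249193 reads in vector cells. Mitochondrially encoded genes took 5.19%, 5.80% and 7.59% of reads in TFCP2L1 replicates 1, 2 and 3 and 5.14%, 6.72% and 5.13% in vector replicates 1, 2 and 3. TFCP2L1 itself had 13578, 13885 and 12333 reads in TFCP2L1 cells and 0, 0 and 1 read in vector cells, as the labels state. The thyroid factor gene PAX8 averaged 477 ± 47.4 CPM (library-size-scaled reads, with TMM factors) in TFCP2L1 cells and 544 ± 24.4 CPM in vector cells (SD, n = 3 each), and the keratin gene KRT18 averaged 156 ± 8.68 CPM in TFCP2L1 cells and 165 ± 14.4 CPM in vector cells. PAX8 was not called (edgeR adjusted p = 0.163), though without TFCP2L1 replicate 3 it was lower (0.0222). KRT18 was not called either (0.612). The keratin gene KRT7, less abundant, was lower, at 4.69 ± 1.15 CPM in TFCP2L1 cells and 9.14 ± 0.991 CPM in vector cells (edgeR adjusted p = 0.00202). The thyroid genes NKX2-1 and TSHR have no row in the table, and the epithelial genes CDH1, EPCAM and KRT19 averaged under 1 CPM in both groups. Of the thyroid list the tested genes were PAX8, FOXE1, HHEX and TG, the last at about 1 CPM.

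The sequences of the start regions are shown because the members are studied as targets of TFCP2L1 and of one another, and because no binding was measured here. RefSeq start regions (build GRCh38.p14; 250 bases before to 50 after the start) were matched for 6 members, with 9 regions in all: SOX2, NANOG, ESRRB, KLF2, KLF4 and KLF5. Start regions of POU5F1, TBX3, SALL4 and PRDM14 were not matched. Each region was searched on both strands for the paired motif of CP2 factors, CCAG, then 6 bases of any kind, then CCAG, and for the motif of Krüppel-like factors, GGGNGNGGC. The paired CP2 motif was present in 1 of the 9 regions, that of NANOG, against 4.04% of all 35116 RefSeq start regions. The Krüppel-like motif was present in 4 of the 9, those of SOX2, KLF2, KLF4 and 1 of KLF5, against 30.6% of all regions. Capitals mark these matches in the regions below, which run 5′ to 3′ along the gene. The KLF4 region (chr9:107489720-107490019, minus strand) belongs to a member that fell and held 4 matches to the Krüppel-like motif, of which 2 overlap. The KLF2 region (chr19:16324576-16324875, plus strand) belongs to a related member that was not called and held 2 matches. The NANOG region (chr12:7789152-7789451, plus strand) held the paired CP2 motif, on the opposite strand, beginning 34 bases past the start.
KLF4: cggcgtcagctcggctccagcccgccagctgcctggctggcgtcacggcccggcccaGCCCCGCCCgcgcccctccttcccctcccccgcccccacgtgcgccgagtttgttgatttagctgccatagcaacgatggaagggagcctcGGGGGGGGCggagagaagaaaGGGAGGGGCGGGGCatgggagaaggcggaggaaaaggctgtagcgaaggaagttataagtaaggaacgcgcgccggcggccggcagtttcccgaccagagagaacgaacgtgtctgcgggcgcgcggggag
KLF2: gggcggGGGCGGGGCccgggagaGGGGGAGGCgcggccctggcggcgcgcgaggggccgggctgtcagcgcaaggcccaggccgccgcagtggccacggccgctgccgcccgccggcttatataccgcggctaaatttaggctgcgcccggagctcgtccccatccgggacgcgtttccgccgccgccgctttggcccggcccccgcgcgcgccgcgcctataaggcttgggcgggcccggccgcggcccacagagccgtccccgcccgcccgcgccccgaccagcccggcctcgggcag
NANOG: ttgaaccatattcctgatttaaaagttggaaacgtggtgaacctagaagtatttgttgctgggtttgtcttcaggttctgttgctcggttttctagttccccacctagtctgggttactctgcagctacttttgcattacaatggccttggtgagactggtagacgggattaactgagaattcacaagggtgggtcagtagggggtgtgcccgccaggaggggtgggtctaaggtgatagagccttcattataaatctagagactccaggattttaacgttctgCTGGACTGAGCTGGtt
A match is a run of letters and no evidence of binding, and the windows say nothing of sites elsewhere.

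Of the members that could be tested, POU5F1 and KLF4 were lower in TFCP2L1 cells, TBX3 was higher without passing the test, and KLF2 and KLF5 had overlapping groups. By edgeR's quasi-likelihood test with Benjamini-Hochberg adjustment over all 14431 genes, 2 of the 5 tested members fell at an adjusted p under 0.05, beside 6.94% of all tested genes. Of the 5, 0 rose, beside 4.63% of all tested genes. At an unadjusted p under 0.05 the count that was higher was 1, and DESeq2 called 1 higher, TBX3 in both cases. Over all genes DESeq2 called 859 higher and 1069 lower of 13780, and the share at an unadjusted p is not given. The libraries of the groups did not overlap for 2 members that were lower and 1 that was higher, beside 15.6% and 14.4% of all tested genes. The median log2 fold change of the 5 was 0.17, beside 0.003 over all tested genes. The counts over all genes, 668 higher and 1002 lower, became 298 and 645 without vector replicate 1 and 313 and 621 without vector replicate 3.

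Of the core factors, POU5F1 was the one with a level that could be tested, and it fell to 0.568 times its vector level. POU5F1 encodes OCT4, the POU-domain factor without which pluripotency is not established (GENCODE v29 ENSG00000204531.17, GRCh38 chromosome 6, 31164337 to 31180731, minus strand). It had 5.17, 4.61 and 5.82 CPM in TFCP2L1 replicates 1, 2 and 3 and 8.92, 10.1 and 8.43 CPM in vector replicates 1, 2 and 3. All 3 TFCP2L1 libraries lay below all 3 vector libraries. The means were 5.202 ± 0.602 CPM in TFCP2L1 cells and 9.16 ± 0.879 CPM in vector cells (SD, n = 3 each), from 606 and 1038 reads in all. The log2 fold change was -0.82 ± 0.15 (SE; 95% interval -1.14 to -0.49), with an edgeR adjusted p of 0.00202. An exact two-sided permutation test of CPM had p = 0.1, its minimum with 3 libraries in each group. These are bulk libraries, so fewer cells with the transcript and less transcript per cell cannot be told apart.

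What the POU5F1 count holds was examined from the annotation. Of the 100-base windows of its GENCODE transcripts, 13.6% also occur in transcripts of other genes: 134 windows in POU5F1B, 156 in the pseudogene POU5F1P3, 70 in POU5F1P4 and 65 in TCF19. POU5F1B, a near-copy on chromosome 8, had 3, 0 and 5 reads in TFCP2L1 cells and 1, 1 and 4 reads in vector cells. Summing POU5F1B with POU5F1 left the log2 fold change at -0.81. The pseudogenes have no row, and of the 20022 table symbols matched to RefSeq 8 are pseudogenes. TCF19, a gene linked to late G1 and S phase, overlaps 8.56% of the exon bases of POU5F1 on the opposite strand. It had 79.6 ± 1.73 CPM in TFCP2L1 cells and 67.7 ± 6.52 CPM in vector cells (SD, n = 3 each; edgeR adjusted p = 0.0816) and was higher, not lower, in every TFCP2L1 library. The labels and processing notes do not say how reads with several alignments were counted or whether strand was used, so reads of this overlap cannot be told apart. The count also does not separate the nuclear OCT4A transcript from the shorter transcripts known in adult cells.

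SOX2, the HMG-box partner of OCT4 (GENCODE v29 chromosome 3, 181711924 to 181714436, plus strand), had 5, 0 and 1 read in TFCP2L1 replicates 1, 2 and 3 and 1, 8 and 0 reads in vector replicates 1, 2 and 3. The reads of both groups fell mainly in a single library, and the groups overlapped (exact two-sided permutation test of CPM, p = 0.7). NANOG, the homeobox factor of the core network (chromosome 12, 7787794 to 7799141, plus strand), has no row in the table. All rows of the table hold a read in at least 1 library, and no value is given for NANOG. Of the 100-base windows of NANOG transcripts, 10.5% are shared with other genes, among them NANOGP1 and NANOGP8, which have no row either.

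Of the 3 Krüppel-like members KLF4 fell, and KLF2 and KLF5 were not called. KLF4, a zinc-finger reprogramming factor that also drives epithelial differentiation (chromosome 9, 107484852 to 107490482, minus strand), fell to 0.816 times its vector level. It had 45.8, 45.2 and 39.96 CPM in TFCP2L1 replicates 1, 2 and 3 and 57.0, 49.5 and 53.9 CPM in vector replicates 1, 2 and 3. The groups did not overlap, though TFCP2L1 replicate 1 and vector replicate 2 were close. The log2 fold change was -0.29 ± 0.09 (SE; 95% interval -0.48 to -0.11), with an edgeR adjusted p of 0.0423. That call was lost without TFCP2L1 replicate 1 (edgeR adjusted p = 0.0674) or 3 (0.102) and without vector replicate 1 (0.206) or 3 (0.152), which left 1 member called lower. Over these 4 fits the log2 fold change ran from -0.33 to -0.23.

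KLF2, a zinc-finger factor of naive cells and of endothelium under flow (chromosome 19, 16324817 to 16327874, plus strand), had 6.91, 5.66 and 9.52 CPM in TFCP2L1 replicates 1, 2 and 3. In vector replicates 1, 2 and 3 it had 6.11, 6.08 and 4.77 CPM. The groups overlapped, and TFCP2L1 replicate 3 was the high library. The log2 fold change was 0.38 ± 0.19 (SE; 95% interval -0.03 to 0.79; edgeR adjusted p = 0.231), and 0.155 without TFCP2L1 replicate 3 (0.673). The interval holds 0 and reaches 0.79 on the log2 scale, so neither no change nor a rise of up to about that size was excluded.

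KLF5, a zinc-finger factor of naive cells and of proliferating epithelium (chromosome 13, 73054976 to 73077542, plus strand), had 9.86, 10.7 and 12.1 CPM in TFCP2L1 replicates 1, 2 and 3 and 8.20, 10.2 and 10.7 CPM in vector replicates 1, 2 and 3. The groups overlapped. The log2 fold change was 0.17 ± 0.14 (SE; 95% interval -0.13 to 0.46; edgeR adjusted p = 0.514).

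**Figure D1:**
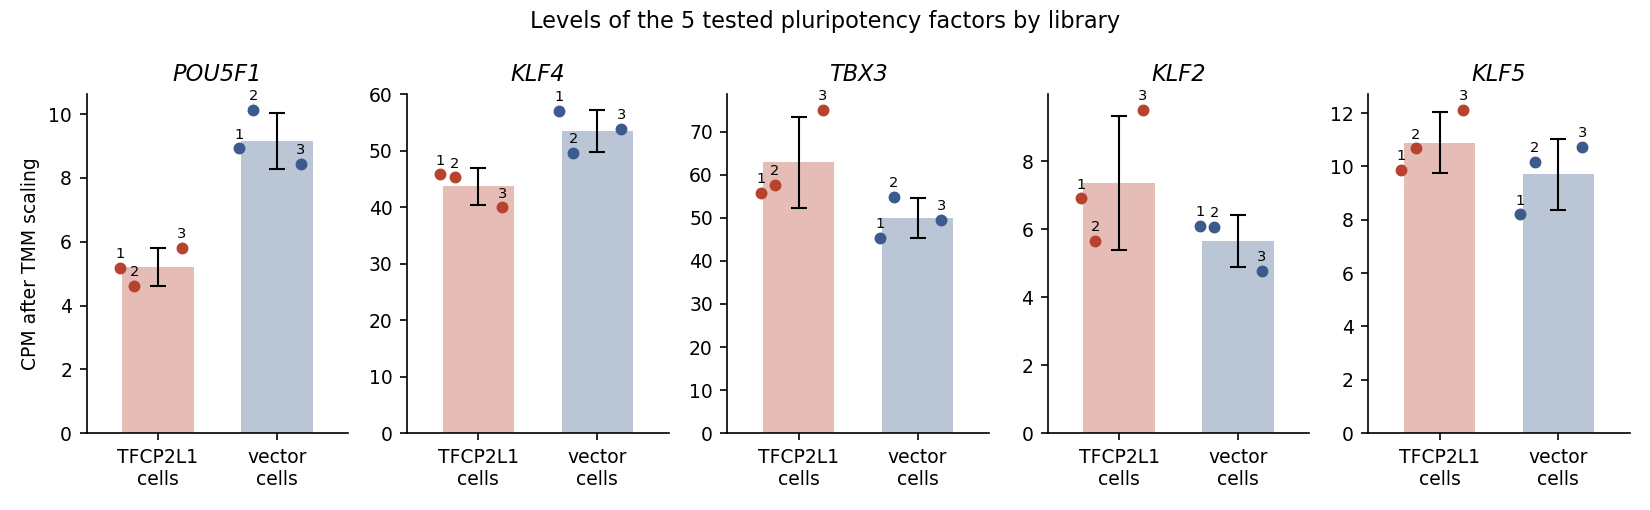
Level of the 5 tested members in CPM after TMM scaling (vertical axes, linear, each from 0), with TFCP2L1 cells left of vector cells; points are libraries numbered by replicate, bars are means and error bars SD (n = 3 each). The POU5F1 and KLF4 libraries of TFCP2L1 cells lie below those of vector cells, the TBX3 libraries lie above them, and the KLF2 and KLF5 libraries overlap.

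TBX3, a T-box repressor that supports the naive state and marks several adult epithelia (chromosome 12, 114670254 to 114684164, minus strand), had 55.8, 57.7 and 75.1 CPM in TFCP2L1 replicates 1, 2 and 3. It had 45.4, 54.9 and 49.6 CPM in vector replicates 1, 2 and 3. The groups did not overlap, but TFCP2L1 replicate 1 and vector replicate 2 were close, and TFCP2L1 replicate 3 stood above the rest. The log2 fold change was 0.33 ± 0.11 (SE; 95% interval 0.10 to 0.57), and the edgeR adjusted p of 0.0666 missed the threshold. Without TFCP2L1 replicate 3 the log2 fold change was 0.185 (edgeR adjusted p = 0.216), and without vector replicate 2 it was 0.405 (0.0418). TFCP2L1 replicate 3 and vector replicate 2 were also the libraries with the highest mitochondrial shares of their groups, 7.59% and 6.72%. In both of these libraries TBX3 and POU5F1 (5.82 and 10.1 CPM) were the highest of their group and KLF4 (39.96 and 49.5 CPM) the lowest. KLF2 and KLF5 were the highest of their group only in TFCP2L1 replicate 3. The part of the mitochondrial share in the values of the members was not tested.

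ESRRB, SALL4 and PRDM14 complete the list. ESRRB, the orphan nuclear receptor closest to Tfcp2l1 in the mouse naive network (chromosome 14, 76310712 to 76501837, plus strand), had 1, 4 and 2 reads in TFCP2L1 cells and 1, 5 and 9 reads in vector cells. SALL4, a zinc-finger partner of OCT4 (chromosome 20, 51782331 to 51802520, minus strand), had 2, 3 and 2 reads in TFCP2L1 cells and 8, 1 and 10 reads in vector cells. Both had overlapping groups, with exact two-sided permutation p-values of CPM of 0.3 for ESRRB and 0.4 for SALL4. Summed over 3 libraries, SALL4 had 7 reads (exact Poisson 95% interval 2.81 to 14.4) in TFCP2L1 cells and 19 reads (11.4 to 29.7) in vector cells, intervals that cover counting error only and not the spread between libraries. PRDM14, a PR-domain factor of naive and germ cells (chromosome 8, 70051651 to 70071693, minus strand), has no row in the table, and no value is given for it.

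Levels of different genes were set side by side per gene length, in the deposited FPKM values. The lengths implied by these values differ from the GENCODE v29 exon bases. They were 2820 against 2018 bases for KLF2, 3532 against 3893 for KLF5 and 2757 against 2896 for POU5F1. For KLF4 they were 3038 against 3659 bases, and for TBX3 4793 against 5950. The order and overlap of genes with close values, such as KLF5 and KLF2, therefore depend on the length used. In TFCP2L1 cells KLF4 had 14.5 ± 1.15 and TBX3 13.2 ± 2.16 FPKM, followed by KLF5 at 3.11 ± 0.306, KLF2 at 2.63 ± 0.694 and POU5F1 at 1.90 ± 0.217 FPKM (SD, n = 3 each). In vector cells KLF4 had 17.4 ± 1.29 and TBX3 10.3 ± 0.935 FPKM, followed by POU5F1 at 3.29 ± 0.299, KLF5 at 2.72 ± 0.372 and KLF2 at 1.98 ± 0.264 FPKM. POU5F1 was thus the lowest of the 5 in TFCP2L1 cells and the third in vector cells. It lay below every KLF5 library in TFCP2L1 cells and overlapped KLF2 there. In vector cells the lowest POU5F1 library, at 3.04 FPKM, was just above the highest KLF5 library, at 3.03 FPKM. KLF5 and KLF2 overlapped in TFCP2L1 cells and did not in vector cells. KLF4 and TBX3 likewise overlapped in TFCP2L1 cells and did not overlap in vector cells. The ratio of KLF4 to TBX3 was 1.29, 1.24 and 0.839 in TFCP2L1 replicates 1, 2 and 3 and 1.98, 1.42 and 1.71 in vector replicates 1, 2 and 3. KLF4 was lower and TBX3 higher in every TFCP2L1 library than in any vector library, so the ratios could not overlap. The p of 0.1 in an exact two-sided permutation test, again the minimum, followed from this and is no further result. Among all 21173 genes KLF4 stood at percentile 82.1 and 84.7 of mean FPKM in TFCP2L1 and vector cells, and POU5F1 at percentile 53.9 and 59.7. SOX2, SALL4 and ESRRB averaged 0.0208, 0.00932 and 0.00977 FPKM in TFCP2L1 cells and 0.0313, 0.0256 and 0.0212 FPKM in vector cells.

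**Figure D2:**
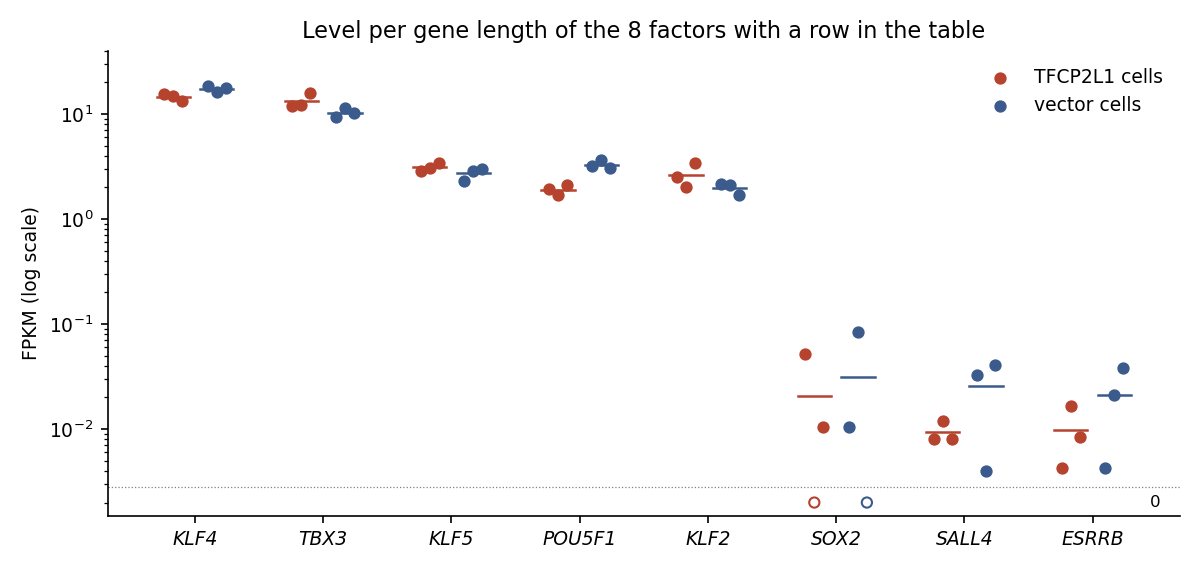
FPKM of the 8 members with a row (vertical axis, log scale), with TFCP2L1 cells left of vector cells for each gene; points are libraries, short lines are means of 3, and open points below the dotted line are libraries at 0. KLF4 and TBX3 lie near or above 10 FPKM, KLF5, POU5F1 and KLF2 between 1.68 and 3.62 FPKM, and SOX2, SALL4 and ESRRB under 0.1 FPKM.

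The genes whose log2 CPM followed the 2 called members most closely over the 6 libraries were named by rule from 12541 tested genes with a mean of at least 1 CPM. For POU5F1 they were CEBPD, a C/EBP transcription factor (Pearson's r = 0.999), and GRN, the progranulin gene (0.996). CEBPD had 28.1, 24.2 and 33.2 CPM in TFCP2L1 cells and 61.7, 71.4 and 58.6 CPM in vector cells. GRN had 288, 259 and 314 CPM in TFCP2L1 cells and 407, 431 and 387 CPM in vector cells. For KLF4 they were the Wnt ligand gene WNT5B (r = 0.999) and RAB9A, a GTPase gene of endosome transport (0.998). WNT5B had 49.5, 46.7 and 37.5 CPM in TFCP2L1 cells and 72.7, 56.4 and 66.6 CPM in vector cells, and RAB9A had 27.1, 26.4 and 23.2 CPM in TFCP2L1 cells and 34.5, 29.3 and 31.7 CPM in vector cells. Each of these genes ranked the 6 libraries as its member did, having been picked for that likeness. These values describe 6 libraries that share the group difference and were the highest of many, so they carry no test.

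Relatives of the Krüppel-like members showed more falls than rises. Of the 10 other tested members of the KLF family 3 fell and 0 rose (1 was higher at an unadjusted p under 0.05, and 0 by DESeq2), a called share of 30.0% beside 11.6% of all tested genes called in either direction. Over all tested genes falls were also the more frequent, at 6.94% against 4.63% for rises. The median log2 fold change of the 10 was -0.25. KLF9, a hormone-induced factor linked to differentiation, had 8.09, 7.75 and 8.97 CPM in TFCP2L1 cells and 14.4, 14.7 and 17.1 CPM in vector cells. Its groups lay far apart, with a log2 fold change of -0.90 ± 0.13 (edgeR adjusted p = 0.000170). KLF11, a factor known to act in TGF-beta signalling, had 13.8 ± 0.808 CPM in TFCP2L1 cells and 19.6 ± 0.892 CPM in vector cells (SD, n = 3 each; edgeR adjusted p = 0.00517). KLF3, a repressor, had 58.0 ± 3.37 CPM in TFCP2L1 cells and 71.2 ± 4.47 CPM in vector cells (edgeR adjusted p = 0.0269). It missed the threshold without TFCP2L1 replicate 1 (0.113) or vector replicate 1 (0.0512), 2 (0.127) or 3 (0.0972). KLF17, in humans a marker of naive pluripotent cells, had 3.25, 3.29 and 2.77 CPM in TFCP2L1 cells and 4.83, 4.59 and 4.45 CPM in vector cells. Its groups did not overlap, and its edgeR adjusted p was 0.0562.

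Relatives of the other members moved in both directions. Among 8 other tested SOX genes 2 rose and 0 fell by edgeR, beside 4.63% and 6.94% of all tested genes, and the median log2 fold change was -0.005. Lower SOX genes numbered 2 at an unadjusted p under 0.05 and 1 by DESeq2. SOX7, a factor of endoderm and vessels, had 22.1, 17.2 and 26.4 CPM in TFCP2L1 cells and 9.48, 12.7 and 10.1 CPM in vector cells (log2 fold change 1.02 ± 0.16; edgeR adjusted p = 0.000401). SOX9, a factor of cartilage and of epithelial progenitors, had 58.2 ± 5.80 CPM in TFCP2L1 cells and 42.6 ± 3.20 CPM in vector cells (0.45 ± 0.09; edgeR adjusted p = 0.00439). Among 5 other tested POU genes, with a median log2 fold change of -0.117, 1 rose, beside 4.63% of all tested genes that rose. POU2F1, which encodes the widely expressed factor OCT1, had 50.7, 58.3 and 57.2 CPM in TFCP2L1 cells and 41.3, 41.4 and 44.5 CPM in vector cells (0.38 ± 0.09; edgeR adjusted p = 0.00703). Its groups did not overlap, and its direction was opposite to that of POU5F1. POU2F2 went in the direction of POU5F1 without being called (log2 fold change -0.63 ± 0.29, edgeR adjusted p = 0.190). It had 3.12, 1.25 and 3.39 CPM in TFCP2L1 cells and 4.22, 3.95 and 3.82 CPM in vector cells, with TFCP2L1 replicate 2 far the lowest. Its groups did not overlap either, as for 15.6% of all tested genes in that direction.

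Of 19 other tested genes of the TBX, SALL, ESRR and PRDM families 1 rose and 2 fell, with a median log2 fold change of 0.012. The called share of 15.8% was near the 11.6% of all tested genes. TBX2, the nearest relative of TBX3, had 4.15, 5.33 and 4.25 CPM in TFCP2L1 cells and 2.15, 3.50 and 2.32 CPM in vector cells. Its rise, 0.78 ± 0.22 on the log2 scale (edgeR adjusted p = 0.0330), was lost as a call without TFCP2L1 replicate 1 (0.0650) or 2 (0.108) or vector replicate 1 (0.147) or 3 (0.140). PRDM8 had 12.8 ± 0.687 CPM in TFCP2L1 cells and 20.4 ± 1.49 CPM in vector cells (edgeR adjusted p = 0.000630). TBX19, a pituitary T-box gene, had 5.53 ± 0.406 CPM in TFCP2L1 cells and 8.17 ± 0.897 CPM in vector cells (edgeR adjusted p = 0.0235). It missed the threshold without TFCP2L1 replicate 1 (0.0556) or 3 (0.0532) or vector replicate 1 (0.0730) or 2 (0.108).

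The wider pluripotency network was mostly without rows or not called. Of 36 further genes listed, 18 have no row, among them LIN28A, LIN28B, the DPPA genes, UTF1, TDGF1, NODAL, LEFTY1, LEFTY2, GDF3 and FGF4. Of 14 tested, 3 fell and 0 rose (0 higher at an unadjusted p under 0.05 and 0 by DESeq2), a called share of 21.4% beside 11.6% of all tested genes, and a median log2 fold change of -0.155. Over all tested genes 6.94% fell and 4.63% rose. KLF17 is in this list too. NR5A2, a nuclear receptor able to replace OCT4 in mouse reprogramming, had 5.92, 7.04 and 6.57 CPM in TFCP2L1 cells and 9.61, 10.3 and 9.83 CPM in vector cells. The groups did not overlap, and the log2 fold change was -0.61 ± 0.14 (edgeR adjusted p = 0.00786). JARID2, a partner of Polycomb complex PRC2, had 52.5 ± 4.54 CPM in TFCP2L1 cells and 66.7 ± 2.38 CPM in vector cells (edgeR adjusted p = 0.0127, and 0.0698 without TFCP2L1 replicate 1 and 0.0793 without vector replicate 3). The DNA methyltransferase gene DNMT3B had 28.5, 24.8 and 24.6 CPM in TFCP2L1 cells and 31.9, 34.9 and 33.7 CPM in vector cells (edgeR adjusted p = 0.0201, and 0.0501, 0.0780 and 0.0947 without vector replicates 1, 2 and 3).

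The inputs that act upstream of TFCP2L1 in pluripotent cells, listed with direct feedback targets, were all expressed, and their changes were small. Of 18 tested genes of LIF, STAT3 and Wnt signalling 2 rose and 3 fell, a called share of 27.8% beside 11.6% of all tested genes, and a median log2 fold change of -0.035. LIF, the cytokine that sustains mouse naive cells, had 86.5, 73.8 and 89.6 CPM in TFCP2L1 cells and 109, 114 and 112 CPM in vector cells (log2 fold change -0.42 ± 0.08; edgeR adjusted p = 0.00272). STAT3, which carries the LIF signal to the nucleus, had 158, 163 and 151 CPM in TFCP2L1 cells and 127, 125 and 135 CPM in vector cells (0.28 ± 0.07; edgeR adjusted p = 0.0164). The receptor genes LIFR and IL6ST were not called. The kinase gene JAK1 fell by 0.34 (edgeR adjusted p = 0.0178) and the Wnt effector gene TCF7 by 0.39 (0.0127) on the log2 scale, and GSK3A, a kinase that restrains beta-catenin, rose by 0.27 (0.0347). Without TFCP2L1 replicate 1 the edgeR adjusted p was 0.0511 for STAT3, 0.0889 for JAK1, 0.0712 for TCF7 and 0.0711 for GSK3A. The calls were also lost without vector replicate 1 or 2 for STAT3 (0.0921 and 0.0751) and 1 or 3 for JAK1 (0.0557 and 0.0840). They were lost without vector replicate 3 for TCF7 (0.0715), and for GSK3A without any vector replicate (0.0608 to 0.169) or TFCP2L1 replicate 3 (0.0787). TCF7L1, the repressor that Wnt signalling relieves from the mouse Tfcp2l1 gene, had 10.6 ± 2.90 CPM in TFCP2L1 cells and 11.1 ± 0.784 CPM in vector cells.

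**Figure D3:**
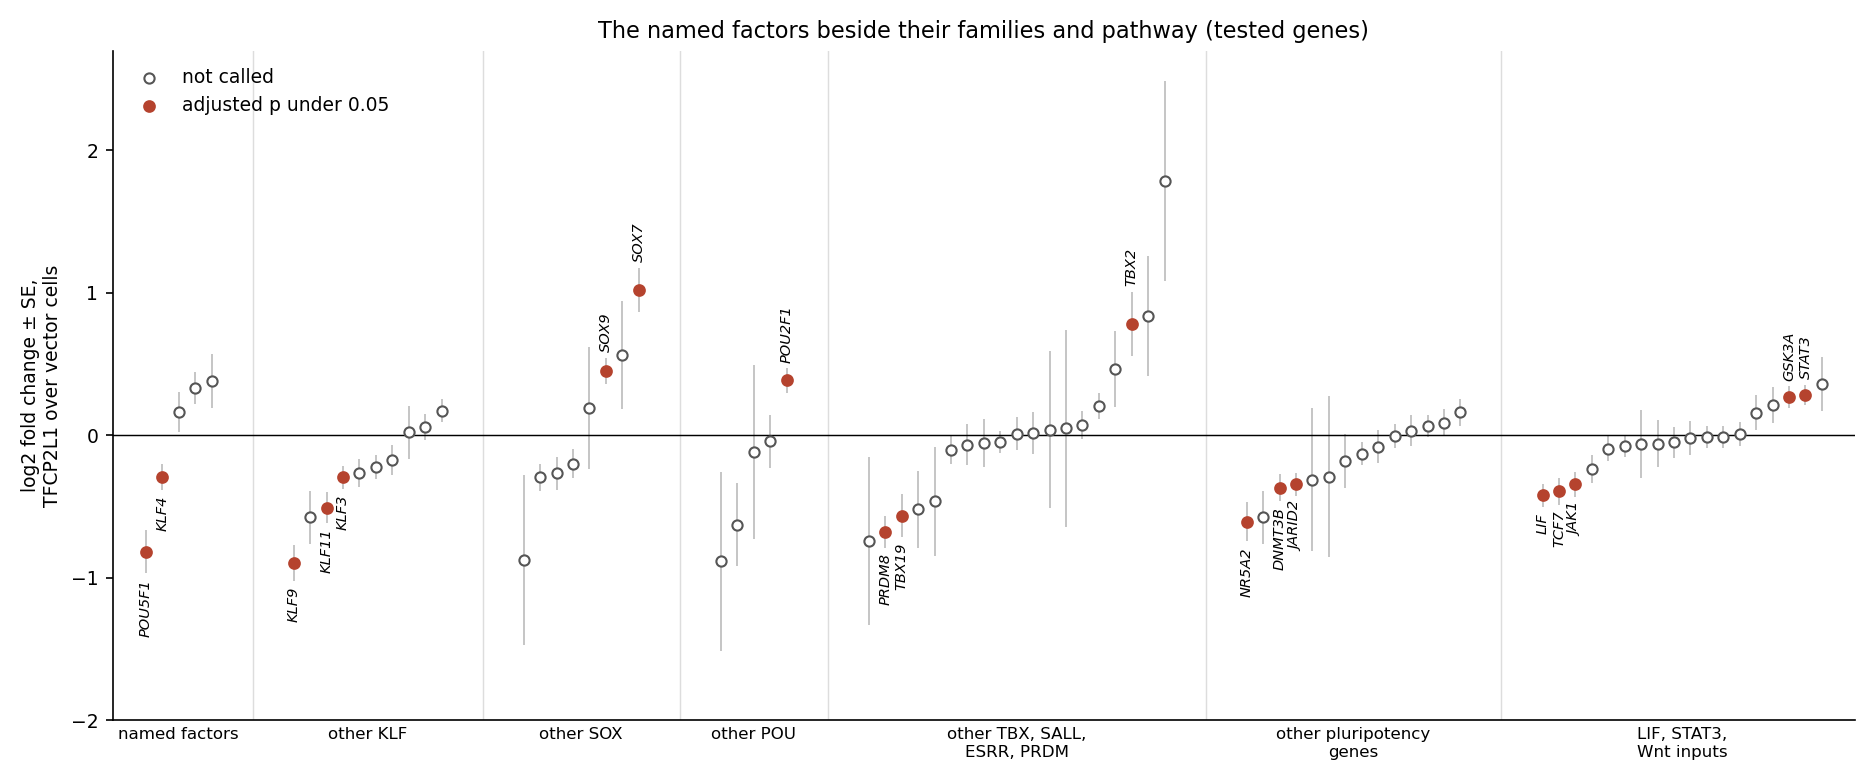
Log2 fold change of TFCP2L1 over vector cells with its SE (vertical axis) for the tested members and the tested genes of 6 related lists, ordered within each list by fold change; filled points are called at an edgeR adjusted p under 0.05. Among named factors POU5F1 and KLF4 are called and lower, other KLF genes are called only below 0, and the called SOX and POU genes lie above 0.

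Markers of other cells were read beside these results. Of 10 markers of pluripotent cells 7 have no row, ZFP42 averaged 0.0681 CPM in TFCP2L1 cells and 0.0796 CPM in vector cells, and USP44 averaged 0.590 CPM in TFCP2L1 cells and 0.733 CPM in vector cells. The summed level of the list without DNMT3B ran from 0.261 to 0.896 CPM in TFCP2L1 libraries and from 0.500 to 1.22 CPM in vector libraries. With DNMT3B, which dividing adult cells also express, it ran from 24.8 to 29.4 CPM in TFCP2L1 libraries and from 32.6 to 36.1 CPM in vector libraries. Of the leukocyte list 2 of 2 tested genes were called, CD68 higher and ITGAX lower in TFCP2L1 cells, beside 11.6% of all tested genes called. PTPRC, which defines leukocytes, averaged 0.0255 CPM in TFCP2L1 cells and 0.0708 CPM in vector cells. The leukocyte sum ran from 98.4 to 125 CPM in TFCP2L1 libraries and from 70.0 to 85.6 CPM in vector libraries. CD68 made up nearly all of it, at 106 ± 14.2 CPM in TFCP2L1 cells and 68.8 ± 6.06 CPM in vector cells, while ITGAX had 2.41 ± 0.498 CPM in TFCP2L1 cells and 7.49 ± 1.90 CPM in vector cells (SD, n = 3 each). Of the fibroblast list 1 of 4 tested genes, FBLN1, was called and lower, beside 6.94% of all tested genes that fell. COL1A2 and COL3A1 had 0 reads in TFCP2L1 cells and averaged 0.0176 and 0.0265 CPM in vector cells. The fibroblast sum ran from 80.6 to 89.5 CPM in TFCP2L1 libraries and from 106 to 117 CPM in vector libraries, most of it FBLN1, at 77.1 ± 3.95 CPM in TFCP2L1 cells and 102 ± 6.09 CPM in vector cells (SD, n = 3 each). Of the endothelial list 0 of 1 tested gene, PECAM1, was called (0 at an unadjusted p under 0.05 and 0 by DESeq2), beside 11.6% of all tested genes. The endothelial sum ran from 1.28 to 1.79 CPM in TFCP2L1 libraries and from 0.849 to 1.32 CPM in vector libraries. The endothelial gene TEK, too low to be tested, averaged 0.420 CPM in TFCP2L1 cells and 0.0881 CPM in vector cells. KDR and VWF, also too low to be tested, went the other way. They averaged 0.0597 and 0.0171 CPM in TFCP2L1 cells and 0.212 and 0.0527 CPM in vector cells. The part of these genes in the results for the members was not tested. Of the thyroid markers 0 of 4 tested were called by edgeR (2 at an unadjusted p under 0.05, 0 by DESeq2), beside 11.6% of all tested genes. Of the epithelial markers 1 of 3 tested, KRT7, fell, beside 6.94% of all tested genes that fell. In the CP2 and grainyhead family 1 of the 3 tested genes other than the overexpressed TFCP2L1 rose, GRHL1 (edgeR adjusted p = 0.0411), beside 4.63% of all tested genes that rose. The GRHL1 call was lost without TFCP2L1 replicate 1 (0.148) or 2 (0.0585) or vector replicate 1 (0.180) or 3 (0.137).

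**Figure D4:**
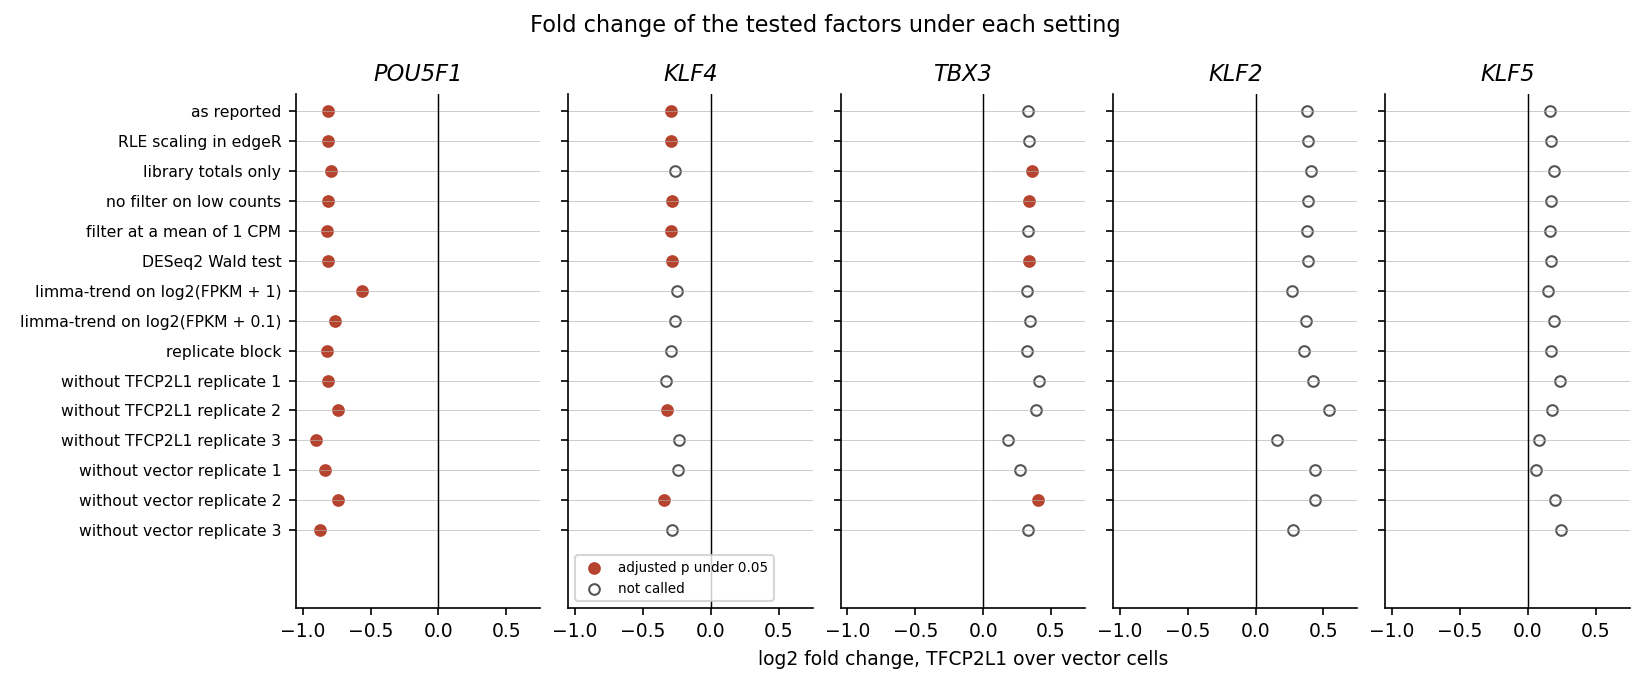
Log2 fold change of TFCP2L1 over vector cells (horizontal axes) for the 5 tested members under the reported fit and each alternative (rows); filled points have an adjusted p under 0.05. POU5F1 is filled in every row, KLF4 and TBX3 in some, and KLF2 and KLF5 in none, and each gene keeps its side of 0.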

How the data were processed

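Total RNA of 6 libraries was prepared with TRIzol and a VAHTS Universal kit, per the labels' protocols. Fastp, HISAT2 and HTSeq and the build GRCh38.p13 are named in the submitters' processing notes, without versions or settings. The authors deposited raw read counts per gene and FPKM values. The FPKM values equal the deposited counts divided by 1 length per gene and the library total, so they are no second measurement. Columns were matched to samples by group and replicate number, those named Con being taken as vector cells.

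Counts were tested with edgeR 4.0.16 (R 4.3.3): filterByExpr, TMM scaling and the robust quasi-likelihood F-test, two-sided, in 1 fit of 6 libraries, with Benjamini-Hochberg adjustment and a threshold of 0.05. SE is the fold change over the square root of F. CPM uses library totals times TMM factors. In a single draw of data simulated for this comparison (14431 genes), 200 genes were changed, 50 at each fold. Of these, 20.0% of genes changed 1.3-fold, 64.0% changed 1.5-fold, 74.0% changed 2-fold and 88.0% changed 4-fold were called. Of all calls 5.38% were false. The real fit called 1670 genes, more than were changed in the simulation, so its rates may differ. Replicates differed by more than sampling noise (chi-square per gene 7.49 to 42.4). Members, lists and the naming rule were chosen with earlier results of these data known: all members and TFCP2L1, up to 6 called genes per list by size of change (with none called, the 2 highest in FPKM), and 2 most correlated genes per called member; TCF19, POU5F1B, KLF17 and other uncalled genes were named after their values were seen. Alternatives used DESeq2 1.42.0 and limma 3.58.1. Positions are from GENCODE v29.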

Additional observations from a re-analysis of the deposited data

How the results depend on the processing

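POU5F1 kept its direction and its call under all 15 alternatives, with log2 fold changes from -0.904 to -0.564 (the smallest on the log2(FPKM + 1) scale) and adjusted p from 4.32e-05 to 0.0178. KLF2 and KLF5 were not called under any of 14. KLF4 missed the threshold with library totals only (-0.266), with limma on log2(FPKM + 1) (-0.251) and log2(FPKM + 0.1) (-0.265) and with a replicate block (-0.293), which left 1 member called lower in each, and ran from -0.345 to -0.233 when 1 library was left out, with 1 to 2 members called lower. TBX3 passed it with library totals only (0.358), with no filter on low counts (0.336) and with DESeq2 (0.336), which gave 1 member called higher in each, and ran from 0.185 to 0.412 when 1 library was left out, with 0 to 1 called higher. Counts over all genes ran from 298 to 766 higher and from 621 to 1106 lower when 1 library was left out. The cause of these changes was not tested.

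By the labels, same-numbered libraries of the groups share only a number. Their deviations correlated at r = 0.0721, -0.161 and -0.124 for replicates 1, 2 and 3. Whether they shared a culture or batch is not given, and 3 libraries per group are too few for these values to decide it. The replicate block gave 328 genes higher and 649 lower. TFCP2L1 replicate 1 correlated best with vector replicate 1, and the others did not correlate best with their own number. The highest value, r = 0.22, was between TFCP2L1 replicate 3 and vector replicate 2, the libraries with the highest mitochondrial shares of their groups. Of 25 named genes of the related lists, 14 kept their side of the threshold under every alternative and 0 changed sign. The alternative that sums NANOG with its copies was not run, as neither has a row. At this depth SOX2, SALL4 and ESRRB, with 6 to 19 reads per group, allow no test of modest changes.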
